A study of Mus musculus with 12 samples.

Results

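The 10 genes described here are Krt7, Krt8, Krt18, Krt19, Krt23, Sox9, Spp1, Prom1, Cdh1 and Cd24a, which encode epithelial keratins and proteins used as markers of bile duct cells, liver progenitors and epithelial junctions. They were taken by symbol from a set list, with the transcript of the longest exon length for each symbol, and all 10 were found among the 19012 gene symbols in the data. RNA sequencing covered 4 liver tumors from E2F7/8 double-knockout (DKO) mice (DKO tumor), 4 livers of DKO mice (DKO liver) and 4 livers of wild-type mice (wild-type liver). Tumors and livers of the same replicate number carry the same animal code in the names of the deposited data, and the wild-type codes belong to other animals. By those codes every DKO liver came from a mouse with a tumor, so the genotype and the bearing of a tumor cannot be told apart in DKO liver. The promoter or agent that deleted the genes, the deleted exons, and the strain, sex and age of the mice are not given in the sources used here. Expression is given as RPKM, reads scaled to exon length and to the read total of the library, a scale per length on which genes can be compared.

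Keratins are the intermediate filament proteins of epithelial cells and assemble as pairs of a type I and a type II chain. Hepatocytes are known for the single pair Krt8 (type II) and Krt18 (type I), while cholangiocytes, the cells that line bile ducts, add Krt7 and Krt19, and Krt23 is known to rise in mouse liver injury. Sox9 is a transcription factor of bile duct and progenitor cells, Spp1 encodes the secreted protein osteopontin, Prom1 encodes the membrane glycoprotein prominin 1 (CD133), Cd24a encodes a small mucin-like surface protein, and Cdh1 encodes E-cadherin, the calcium-dependent adhesion protein of epithelial junctions. In normal liver Cdh1 is expressed by bile duct cells and by hepatocytes near the portal vein.

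Depth ranged from 7.985 to 15.956 M reads per library (M, 1e6), so that a single read of a 2 kb transcript made 0.0313 to 0.0626 RPKM. Every library was dominated by hepatocyte RNA, with Alb, encoding albumin, between 57620 and 109400 RPKM in DKO tumors, between 20690 and 98560 in DKO livers and between 33080 and 53880 in wild-type livers. E2f7 had 3 to 21 reads in DKO tumors, 14 to 22 in DKO livers and 6 to 13 in wild-type livers, and E2f8 ranged over 1.66 to 12.2, 2.80 to 20.8 and 1.66 to 4.30 RPKM in the same order of groups. Reads of all exons are summed in these values and the deleted part is not known here, so they do not check the genotype. A tag in the names of the deposited data reads L03 for the 4 DKO tumors and for wild-type livers 3 and 4. It reads L02 for the 4 DKO livers and for wild-type livers 1 and 2. What the tags stand for is not stated. DKO tumor and DKO liver differ completely in this tag, so the tag and the tissue cannot be told apart in that comparison.

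Sequences before the transcription start are shown for Prom1, which rose in the tumors, and for Krt8 and Krt18, the keratin pair of hepatocytes. Each is the 250 bases before a RefSeq start in build GRCm38.p6, read 5′ to 3′ on the gene's strand, which is another build than the mm9 of the expression data. Prom1 lies at chr5:44101737-44101986 on the minus strand, Krt8 at chr15:102004343-102004592 on the minus strand and Krt18 at chr15:102027966-102028215 on the plus strand. Capitals mark the 6-base E-box CACCTG or its reverse complement CAGGTG, letters that SNAIL and ZEB repressors are known to bind in the Cdh1 promoter.
Prom1: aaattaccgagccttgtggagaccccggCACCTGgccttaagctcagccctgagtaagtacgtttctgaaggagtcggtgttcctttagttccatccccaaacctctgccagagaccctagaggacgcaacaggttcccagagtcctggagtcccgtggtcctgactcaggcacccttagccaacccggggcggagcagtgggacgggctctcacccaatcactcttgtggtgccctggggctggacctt
Krt8: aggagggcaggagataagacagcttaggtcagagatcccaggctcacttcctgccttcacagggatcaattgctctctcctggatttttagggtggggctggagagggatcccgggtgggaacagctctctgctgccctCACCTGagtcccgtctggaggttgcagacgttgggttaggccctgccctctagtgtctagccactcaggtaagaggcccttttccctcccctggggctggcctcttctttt
Krt18: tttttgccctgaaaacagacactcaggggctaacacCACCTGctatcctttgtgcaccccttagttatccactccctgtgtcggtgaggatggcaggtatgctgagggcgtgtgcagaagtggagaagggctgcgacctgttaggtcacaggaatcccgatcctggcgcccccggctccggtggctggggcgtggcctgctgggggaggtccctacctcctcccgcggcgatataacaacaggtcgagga
RefSeq windows were matched for 6 of the 10 genes, namely Krt7, Krt8, Krt18, Krt23, Spp1 and Prom1. Cdh1, Sox9, Krt19 and Cd24a were not matched. All 6 held the E-box letters on either strand in at least 1 of their windows, against 19.4% of 27025 genes in the table. Prom1 and Spp1 each had a further window that lacked these letters, and that of Prom1 is not shown. None of the 6 held TTCCCGC or TTGGCGC, letters of the E2F consensus, on either strand. Those letters were in the windows of 4.38% and 2.31% of all genes. A match or its absence in these bases is a description of the sequence and says nothing of binding.

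Prom1 and Cdh1 rose in DKO tumors relative to wild-type livers, and the other 7 genes that could be tested did not pass. Testing was limited to the 11351 genes that reached 0.5 RPKM in 4 or more libraries, which left out Krt7. Of the 9, 2 rose and 0 fell, where 1.23% of all genes tested rose, 0.67% fell and 1.9% passed in either direction. At unadjusted p under 0.05 there were 4 of 9, all higher, against 8.77% of all genes higher and 19.1% in either direction. The log2 difference was above 0 for all 9, against 47.1% of all genes. Groups did not overlap for Prom1 and Cdh1, with the tumors higher, as for 5.57% of all genes. The median log2 difference of the 9 was 0.69, against −0.02 over all genes tested. The genes were chosen with earlier results of these data known, so these shares describe the 9 genes and lend them no support.

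Prom1 (mm9 chromosome 5, 44384860 to 44492919, minus strand) was at 13.4, 7.16, 3.04 and 14.7 RPKM in DKO tumors 1 to 4, at 0.700, 0.870, 2.19 and 3.94 in DKO livers 1 to 4, and at 0.513, 0.405, 0.987 and 0.709 in wild-type livers 1 to 4. All tumors were above every wild-type liver, and tumor 3 was the lowest of the tumors and lay below DKO liver 4. Mean levels were 9.56 ± 5.45 RPKM in DKO tumors and 0.654 ± 0.256 in wild-type livers (SD, n = 4 each), a ratio of means of 14.6. On the log2(RPKM + 1) scale the difference was 2.50 (SE 0.42; limma adjusted p = 0.0215). Within the L03 libraries, 4 tumors against 2 wild-type livers, the difference was 2.33 with limma adjusted p = 0.268. With the tag as a covariate it was 2.33 with limma adjusted p = 0.187. The tag varies only within wild-type liver, so both fits give the same difference by design and are not separate checks of it.

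Cdh1 (chromosome 8, 109127267 to 109194145, plus strand) had 35.0, 39.3, 29.1 and 26.0 RPKM in DKO tumors 1 to 4, 2.87, 10.1, 20.1 and 15.3 in DKO livers, and 4.14, 3.33, 6.98 and 2.60 in wild-type livers. No tumor overlapped any liver of either genotype. DKO livers 2, 3 and 4 were above every wild-type liver and DKO liver 1 was within their range. Means were 32.4 ± 5.96 RPKM in DKO tumors and 4.26 ± 1.92 in wild-type livers (SD, n = 4 each), a ratio of 7.59. The log2 difference was 2.71 (SE 0.44; limma adjusted p = 0.0178). Among L03 libraries alone it was 2.62 (limma adjusted p = 0.0246). With the tag as a covariate it was 2.62, the same by design (limma adjusted p = 0.173).

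The calls of both genes depended on single libraries, and the differences moved less. Leaving out 1 library at a time gave log2 differences of 2.55 to 2.93 for Cdh1, which passed in 9 of 12 fits. For Prom1 it gave 2.25 to 2.90, and 8 of 12 passed. Both totals include the 4 fits without a DKO liver, in which both genes passed. Those libraries are not in this comparison, so the differences stayed at 2.71 and 2.50 there. Among the libraries compared, Prom1 kept its call when DKO tumor 3 or 4 or wild-type liver 2 or 3 was left out. Cdh1 kept its call for those and for DKO tumor 1 (limma adjusted p = 0.0496). Cdh1 had limma adjusted p = 0.0614 when DKO tumor 2 was left out, 0.0624 for wild-type liver 1 and 0.0732 for wild-type liver 4. Prom1 lost its call without the same 3 libraries (0.0614, 0.0866 and 0.0732) and also without DKO tumor 1 (0.0575).

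**Figure D1:**
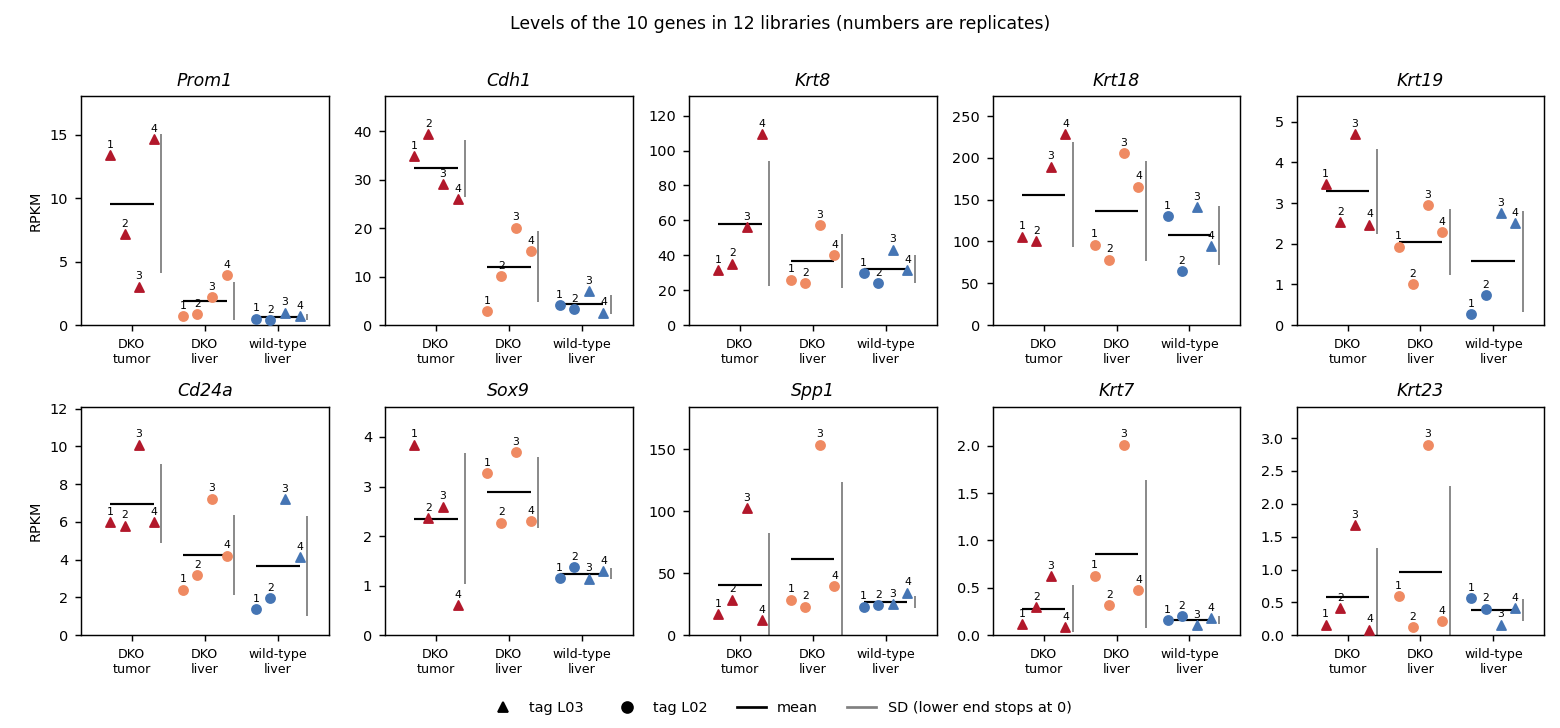
RPKM of each of the 10 genes (vertical axes, linear, from 0) in DKO tumors, DKO livers and wild-type livers, 4 libraries each. Points are libraries numbered by replicate, triangles carry tag L03 and circles tag L02, black lines are means and grey bars SDs. All Cdh1 tumor values, 26.0 to 39.3 RPKM, lie above all liver values, and in animal 3 Spp1 reached 103 RPKM in the tumor and 154 RPKM in the liver.

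The neural-type cadherin gene Cdh2, which hepatocytes also express, was set beside Cdh1 within each library. Cdh2 was at 11.3 to 27.2 RPKM in DKO tumors, 13.3 to 23.7 in DKO livers and 19.1 to 23.8 in wild-type livers. It was lowest in tumor 1 (11.3) and DKO liver 4 (13.3) and highest in tumor 4 (27.2), so the ratio moves with Cdh2 as well as Cdh1. Cdh1 over Cdh2, a ratio of RPKM, was 3.09, 2.06, 1.51 and 0.955 in DKO tumors 1 to 4, 0.131, 0.557, 0.847 and 1.15 in DKO livers, and 0.184, 0.151, 0.365 and 0.109 in wild-type livers. Cdh1 exceeded Cdh2 in tumors 1, 2 and 3 and in DKO liver 4, and was below it in every wild-type liver. Cdh1 is a gene of portal hepatocytes, and the 15 other periportal markers, none of which passed, did not share its direction in the tumors. Their log2 differences between DKO tumor and wild-type liver were all below 0 (median −1.04, against −0.02 over all genes). Between DKO liver and wild-type liver, 11 of the 15 were above 0, against 60.5% of all genes (median 0.28, against 0.08). Single tumors differed, with summed RPKM of these markers at 4598, 2836, 6285 and 1416 in DKO tumors 1 to 4. Tumor 3 was thus within the range of the wild-type livers, 5712 to 6589. Arg1, a urea cycle enzyme gene, averaged 675 ± 471 RPKM in DKO tumors and 1145 ± 153 in wild-type livers (SD, n = 4 each). Whether zone bears on the Cdh1 level was not tested.

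Genes with the pattern most like Prom1 and Cdh1 over the 12 libraries were found by the smallest root mean square difference of z-scores of log2(RPKM + 1), a description with no test. For Prom1 these were Mrgpre (0.279), Bcmo1 (0.280), encoding the beta-carotene cleaving enzyme, and Mtmr11 (0.295). Mtmr11 averaged 10.8 ± 3.76 RPKM in DKO tumors, 2.80 ± 1.60 in DKO livers and 1.54 ± 0.510 in wild-type livers (SD, n = 4 each). For Cdh1 they included Btg2 (0.289), an anti-proliferative gene, and Cyp2a4 (0.339), whose reads can be shared with its near-identical neighbour Cyp2a5. Btg2 averaged 18.9 ± 5.13 RPKM in DKO tumors, 8.89 ± 4.24 in DKO livers and 2.98 ± 1.16 in wild-type livers. Between Prom1 and Cdh1 themselves the measure was 0.527.

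The hepatocyte keratins Krt8 and Krt18 were the most abundant of the 10 genes by mean in DKO tumors and in wild-type livers and carried 97.1% to 99.4% of the summed RPKM of the 5 keratins in every library. In DKO livers Spp1 was above Krt8 in livers 1 and 3 and below it in livers 2 and 4. Krt18 (chromosome 15, 101858655 to 101862451) was at 106, 100.5, 189 and 228 RPKM in DKO tumors 1 to 4, at 96.3, 78.4, 206 and 166 in DKO livers, and at 130.4, 64.4, 141 and 94.2 in wild-type livers. Animals 3 and 4 were higher than animals 1 and 2 in both tissues, and all groups overlapped. Krt8, whose gene lies 23883 bases from Krt18 in the same keratin cluster, was at 31.6, 35.2, 56.2 and 109 RPKM in DKO tumors, at 26.0, 24.0, 57.5 and 40.1 in DKO livers, and at 29.8, 24.1, 43.3 and 31.4 in wild-type livers. Only DKO tumor 4 stood clear of the range of the other libraries.

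Neither passed between DKO tumor and wild-type liver. The log2 difference was 0.69 for Krt8 (95% interval −0.12 to 1.49; limma adjusted p = 0.338) and 0.50 for Krt18 (−0.28 to 1.29; limma adjusted p = 0.489), so a rise of up to about 1.5 in log2 is within the interval of Krt8. The ratio of RPKM of Krt8 over Krt18 was 0.299, 0.350, 0.297 and 0.479 in DKO tumors, 0.270, 0.306, 0.279 and 0.242 in DKO livers, and 0.229, 0.374, 0.306 and 0.333 in wild-type livers. Tumor 4, the library with the most Krt8, also had the highest ratio. A processed pseudogene of Krt8 is annotated, and reads shared with it cannot be told apart here.

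The biliary keratin Krt19 and the surface protein gene Cd24a had higher means in DKO tumors, but both differed as much between the tags within wild-type liver. Krt19 (chromosome 11, 100002125 to 100007232) was at 3.47, 2.52, 4.69 and 2.47 RPKM in DKO tumors, at 1.93, 1.02, 2.96 and 2.28 in DKO livers, and at 0.274, 0.739, 2.76 and 2.51 in wild-type livers 1 to 4. Wild-type livers 3 and 4, tagged L03, were within the range of the tumors, and the 2 tagged L02 were below every DKO liver, with 3 and 13 reads. Cd24a (chromosome 10, 43298974 to 43304070) was at 5.97, 5.81, 10.1 and 6.01 RPKM in DKO tumors, at 2.41, 3.18, 7.24 and 4.22 in DKO livers, and at 1.38, 1.98, 7.23 and 4.14 in wild-type livers. Here too the L03 wild-type livers were above the L02 ones, and liver 3 exceeded tumors 1, 2 and 4.

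Averaged over the wild-type livers, L03 over L02 was 5.20 for Krt19 and 3.39 for Cd24a, and for no other of the 9 tested genes did it reach 3. Of all genes tested, 1.23% were at least 3-fold higher and 0.634% at least 3-fold lower by tag in this way. Between DKO tumor and wild-type liver the log2 difference of Krt19 was 0.85 (limma adjusted p = 0.185) over all libraries and 0.21 (limma adjusted p = 0.857) within L03. For Cd24a it was 0.91 (limma adjusted p = 0.204) over all libraries and 0.26 (limma adjusted p = 0.839) within L03.

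Other epithelial genes showed the tag more sharply. Krt20 and Krt14, the 2 most abundant of 43 other keratin genes and not known as hepatocyte genes, were at 6.12 to 11.1 and 0.806 to 2.19 RPKM in the 6 L03 libraries, and at 0 to 0.420 and 0.0498 to 0.141 RPKM in the 6 L02 libraries. Krt20 was at 6.32 to 11.1 RPKM in the tumors and at 9.33 and 6.12 RPKM in wild-type livers 3 and 4. Epcam, listed as Tacstd1 and encoding a biliary adhesion molecule, was at 3.36 to 7.02 RPKM in L03 libraries and at 0.304 to 3.58 in L02 libraries. The fetal growth factor gene Igf2 ran the other way, with 0.0564 to 1.13 RPKM in L03 and 7.11 to 12.4 in L02 libraries. Over all genes, 0.643% were higher and 1.03% lower in every L03 than in every L02 library, and none of the 9 tested genes was among them. The part of the tag in the levels of Krt19 and Cd24a was not tested beyond these fits.

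**Figure D2:**
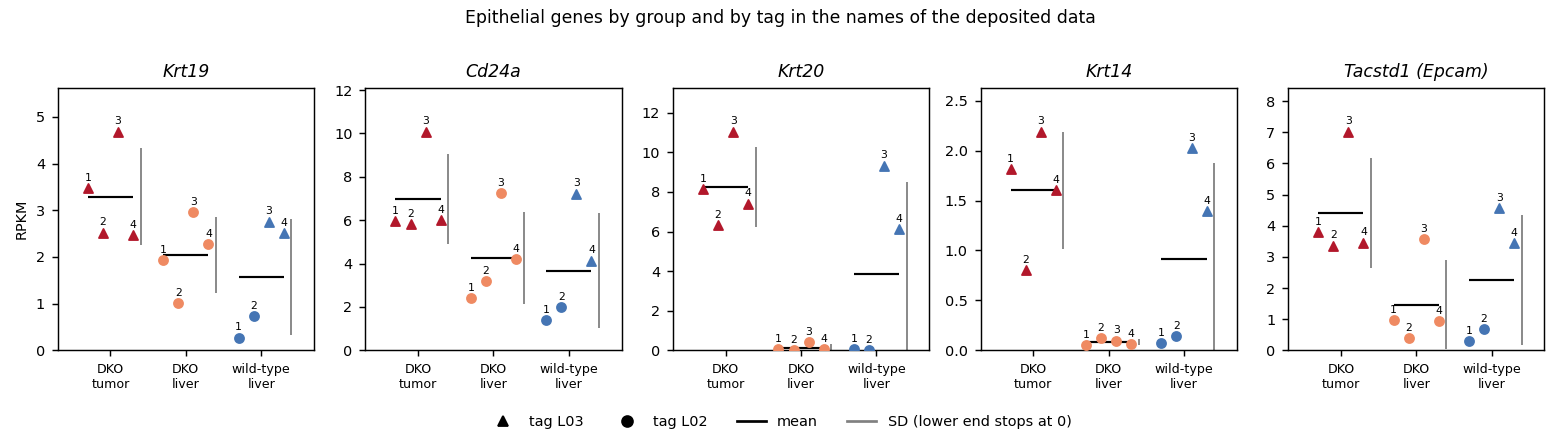
RPKM (vertical axes, linear, from 0) of Krt19, Cd24a, Krt20, Krt14 and Tacstd1 (Epcam) in DKO tumors, DKO livers and wild-type livers, 4 libraries each, with symbols as tags and replicate numbers beside them. For Krt20 all L03 libraries lie at 6.12 RPKM or more and all L02 libraries at 0.420 or less, and for all 5 genes wild-type livers 3 and 4 lie above wild-type livers 1 and 2.

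Sox9 and Krt7 were the 2 genes whose DKO livers lay above every wild-type liver. Sox9 (chromosome 11, 112643537 to 112649062) was at 3.85, 2.37, 2.60 and 0.613 RPKM in DKO tumors 1 to 4, at 3.27, 2.27, 3.70 and 2.30 in DKO livers, and at 1.15, 1.38, 1.14 and 1.30 in wild-type livers. The wild-type livers varied little, every DKO liver was above them, and tumor 4 was below them while the other tumors were above. The mean was 2.89 ± 0.714 RPKM in DKO livers and 1.24 ± 0.116 in wild-type livers (SD, n = 4 each), with a log2 difference of 0.78 (SE 0.27; limma adjusted p = 0.315). Within L02, 4 DKO livers against 2 wild-type livers, it was 0.76 (limma adjusted p = 0.849). Of all genes tested, 5.62% had DKO livers above every wild-type liver.

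Krt7 (chromosome 15, 101242832 to 101258223) was scarce, with 3, 6, 14 and 2 reads in DKO tumors, 12, 5, 39 and 7 in DKO livers, and 2, 4, 2 and 4 in wild-type livers. As RPKM it was at 0.120, 0.3001, 0.622 and 0.0846 in DKO tumors, at 0.631, 0.317, 2.01 and 0.480 in DKO livers, and at 0.159, 0.198, 0.107 and 0.179 in wild-type livers. DKO liver 3 was more than 3 times any other library. Comparing DKO liver and wild-type liver, the two-sided exact permutation test gave unadjusted p = 0.0286 for Krt7 and for Sox9. This is the smallest that 70 splits of 4 against 4 libraries allow, and 30 such tests were made of 10 genes in 3 comparisons. Groups that do not overlap always reach it, so it adds nothing to the separation described above. With no filter on low values, limma gave Krt7 a log2 difference of 0.60 and adjusted p = 0.395 over all genes.

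No gene of the 9 passed between DKO liver and wild-type liver, where 0% of all genes did with limma. With voom on recovered reads 0 of the 9 passed as well. At unadjusted limma p under 0.05 there were 2 of 9, Cdh1 and Sox9, against 9.14% of all genes higher and 12.4% in either direction. The log2 difference of Cdh1 was 1.13 (95% interval 0.19 to 2.08; limma adjusted p = 0.356) and that of Prom1 was 0.70 (−0.21 to 1.61; limma adjusted p = 0.499). All 9 were above 0, against 60.5% of all genes, with a median of 0.35 against 0.08 over all genes.

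Spp1 and Krt23 were high in both tissues of animal 3. Spp1 (chromosome 5, 104865210 to 104870061) was at 17.2, 28.8, 103 and 12.1 RPKM in DKO tumors, at 28.7, 23.2, 154 and 39.9 in DKO livers, and at 23.1, 24.3, 25.4 and 34.5 in wild-type livers. Outside animal 3 the range over all groups was 12.1 to 39.9 RPKM. Krt23 (chromosome 11, 99339286 to 99354423) was at 0.163, 0.409, 1.68 and 0.0865 RPKM in DKO tumors, at 0.591, 0.130, 2.90 and 0.210 in DKO livers, and at 0.570, 0.406, 0.164 and 0.411 in wild-type livers. It had 37 reads in tumor 3 and 55 in DKO liver 3, and 2 to 11 reads in every other library.

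Neither gene passed in any comparison of the groups. Between DKO tumor and wild-type liver, the log2 difference was 0.09 for Spp1 (limma adjusted p = 0.96) and 0.10 for Krt23 (limma adjusted p = 0.919). Both turned negative without animal 3, at −0.52 for Spp1 and −0.19 for Krt23. Set against wild-type liver, DKO liver had a log2 difference of 0.75 for Spp1 (limma adjusted p = 0.635), which was 0.17 without DKO liver 3, and of 0.31 for Krt23 (limma adjusted p = 0.745), which was −0.09 without it.

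Animal 3 was the highest of its group in both tissues for 5 of the 10 genes, Krt7, Krt19, Krt23, Spp1 and Cd24a, and its liver was the highest DKO liver for 9 of 10, all but Prom1. This library runs high in general. Among all genes tested, DKO liver 3 was the highest DKO liver for 58.1%, tumor 3 the highest tumor for 40.2%, and both tissues of animal 3 were the highest for 25.9%, to be read against 4 of the 9 tested genes here. After median-of-ratios scaling, which divides DKO liver 3 by 1.28, both tissues were the highest for 4 of the 10 genes, Krt7, Krt23, Spp1 and Cd24a, or 3 of the 9 tested, against 9.62% of all genes. On that scale liver 3 was the highest DKO liver for 5 of the 10 genes, against 25.4% of all genes, and tumor 3 the highest tumor for 4, against 23.1%. Among genes of the other lists, Ctgf, a target of the YAP pathway, followed the same animal, with 22.2 and 41.0 RPKM in tumor 3 and DKO liver 3 and 2.59 to 5.08 RPKM elsewhere. Gpc3, encoding the oncofetal proteoglycan glypican 3 and chosen after its values were seen, had 8.79 and 17.0 RPKM in tumor and liver of animal 3 and 0.128 to 1.65 elsewhere.

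Markers of several other cell types were also high in animal 3. The summed RPKM of 13 stellate cell and fibroblast markers was 300 in DKO tumor 3 and 74.6 to 82.3 in the other tumors, 419 in DKO liver 3 and 131 to 293 in the other DKO livers, and 125 to 170 in wild-type livers. The sum of 8 neutrophil markers was 38.3 in tumor 3 and 4.93 to 7.80 in the other tumors, 153 in DKO liver 3 and 10.8 to 40.5 in the other DKO livers, and 6.43 to 13.5 in wild-type livers. For 15 macrophage and Kupffer cell markers, a lineage that can also make osteopontin, the sum was 437 in tumor 3 and 157 to 177 in the other tumors, but among DKO livers it was highest in liver 1 with 987, against 714 in liver 3. Erythroid markers ran the other way, with the sum of 7 markers at 64.9 in tumor 3 and 93.9 to 238 in the other tumors, and at 86.3 in DKO liver 3 and 96.3 to 146 in the other DKO livers. No stellate, neutrophil or macrophage marker was at 0 in all libraries. Their part in the levels of Spp1, Krt23 and Krt7 was not tested. In bulk tissue fewer cells of a type and less RNA per cell cannot be told apart.

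**Figure D3:**
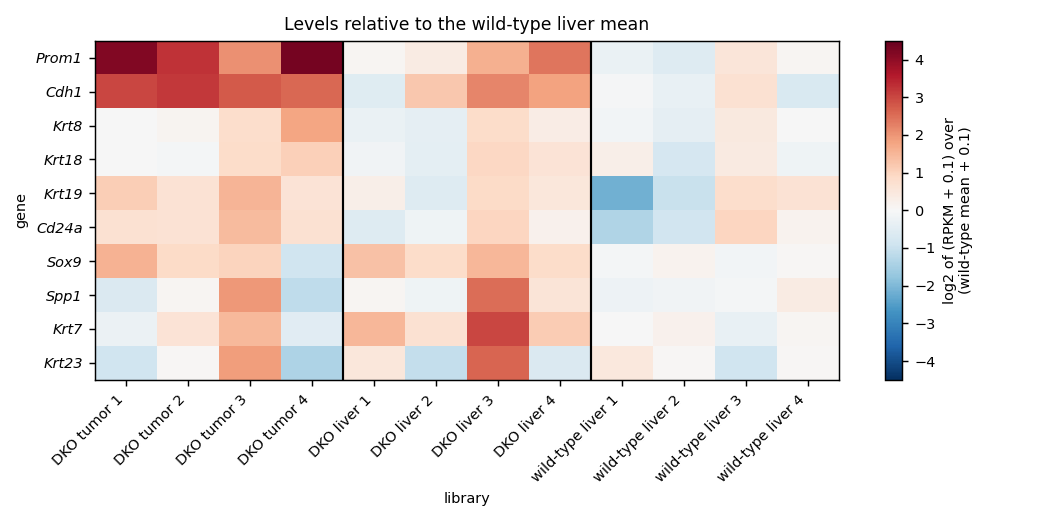
Level of each gene (rows) in each library (columns; DKO tumors, DKO livers, wild-type livers, 4 each) as log2 of (RPKM + 0.1) over the wild-type mean + 0.1, with red above and blue below the wild-type mean. Prom1 and Cdh1 are red in all tumors, while Spp1, Krt7 and Krt23 are darkest in DKO liver 3 and are blue or pale in DKO tumor 4, where Sox9 is at 0.613 RPKM.

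Single tumors differed in which of the genes were high. Tumor 4 had the highest Prom1 (14.7 RPKM), Krt8 (109) and Krt18 (228) of the tumors and the lowest Sox9 (0.613), Spp1 (12.1), Krt7 (0.0846), Krt23 (0.0865), Krt19 (2.47) and Cdh1 (26.0). Tumor 3 had the lowest Prom1 (3.04) and the highest Spp1, Krt7, Krt19, Krt23 and Cd24a. No test was made of these orders, which rest on 1 library each. After median-of-ratios scaling tumor 1 was the highest for Prom1 and for Krt19. The order of the mean levels in DKO tumors was Krt18 (156 ± 63.0 RPKM), Krt8 (58.1 ± 35.8), Spp1 (40.3 ± 42.4), Cdh1 (32.4 ± 5.96), Prom1 (9.56 ± 5.45), Cd24a (6.97 ± 2.08), Krt19 (3.29 ± 1.04), Sox9 (2.36 ± 1.33), Krt23 (0.585 ± 0.744) and Krt7 (0.282 ± 0.246; SD, n = 4 each). Neighbours in this order overlapped in range, except that all Cdh1 values lay above all Prom1 values and all Cd24a values above all Krt19 values.

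Each tumor could be set beside the liver of its own animal. All these tumors are tagged L03 and all these livers L02, so the tag and the tissue cannot be told apart in any of the ratios. The share of all genes higher in 4 of 4 tumors is not given. Prom1 was higher in the tumor in 4 of 4 animals, with ratios of tumor to own liver of 19.1, 8.22, 1.38 and 3.72 in animals 1 to 4, and Cdh1 likewise with 12.2, 3.91, 1.45 and 1.70. Animal 3 had the smallest ratio for both genes. Within wild-type liver the mean of L03 over that of L02 was 1.85 for Prom1 and 1.28 for Cdh1. Both L03 wild-type livers were above both L02 ones for Prom1, and the tags overlapped for Cdh1. Cd24a was also higher in 4 of 4 tumors (ratios 2.47, 1.83, 1.39 and 1.43), as was Krt19 (1.80, 2.48, 1.59 and 1.09), which was higher in 3 of 4 after median-of-ratios scaling, and both of these move with the tag as given above. Krt8 and Krt18 were higher in 3 of 4 tumors as deposited and in 4 of 4 after scaling. Krt7 was lower in RPKM in 4 of 4 tumors (ratios 0.190, 0.948, 0.309 and 0.176), while Krt23 and Spp1 were lower in 3 of 4. The Krt7 ratios rest on 2 to 14 reads in tumors and 5 to 39 in DKO livers. In animal 2 the tumor had 6 Krt7 reads and its liver 5.

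None of the 9 tested genes passed between DKO tumor and DKO liver with limma, and 0 passed with voom on recovered reads, where 0.00881% of all genes tested passed with limma. At unadjusted p under 0.05 there were 2, Prom1 and Cdh1, both higher, against 4.01% of all genes higher and 16.1% in either direction. The log2 difference was above 0 for 6 of 9, against 37.2% of all genes. Prom1 averaged 9.56 ± 5.45 RPKM in DKO tumors and 1.93 ± 1.501 in DKO livers (SD, n = 4 each; log2 difference 1.80, SE 0.42, limma adjusted p = 0.0836). Without animal 3 Prom1 passed, with a log2 difference of 2.29 (limma adjusted p = 0.0164). Cdh1 averaged 32.4 ± 5.96 RPKM in DKO tumors and 12.1 ± 7.38 in DKO livers (1.58, SE 0.44, limma adjusted p = 0.131). Its groups did not overlap, as for 2.12% of all genes in this direction. With the animal as a block over 8 libraries neither passed (Prom1 limma adjusted p = 0.107, Cdh1 0.156).

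**Figure D4:**
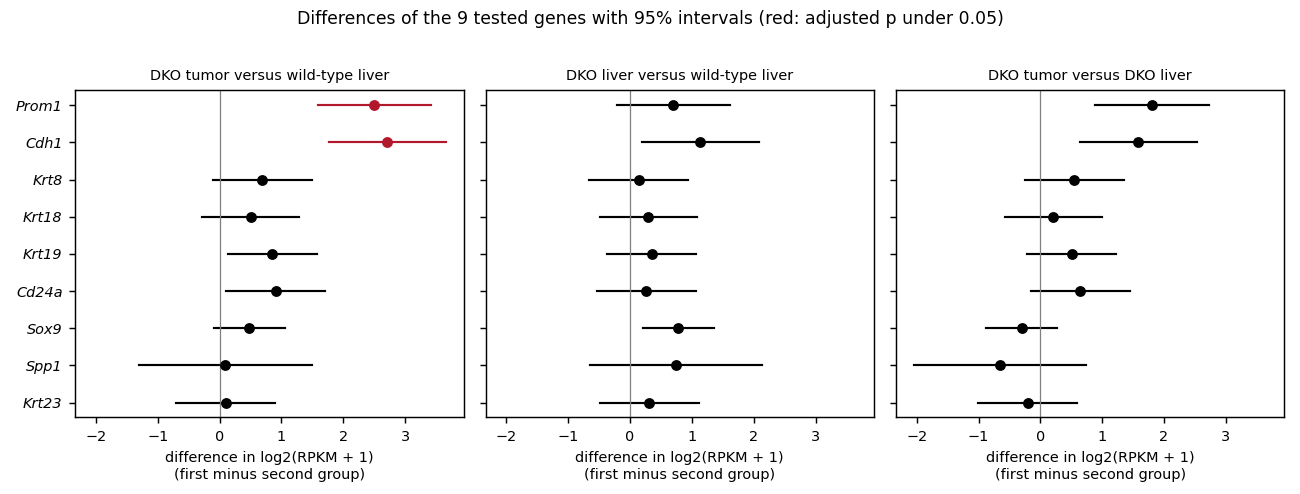
Differences in mean log2(RPKM + 1) (horizontal axes) of the 9 tested genes (rows) for DKO tumor minus wild-type liver, DKO liver minus wild-type liver and DKO tumor minus DKO liver, with points as estimates and bars as 95% intervals of the limma fit over 12 libraries. Only Prom1 at 2.50 and Cdh1 at 2.71, both in the first panel, passed and are drawn in red.

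Further genes of the bile duct and progenitor lists were examined beside the 10. Of 34 other cholangiocyte genes 24 were tested, and 2 rose in DKO tumors relative to wild-type livers and none fell, where 1.23% of all genes rose (median log2 difference 0.14, against −0.02 over all genes). With the tag as a covariate only 3 of all genes tested passed in this comparison. Prom2, the paralog of Prom1, was at 12.2, 7.91, 4.28 and 6.76 RPKM in DKO tumors, at 0.298, 2.64, 1.01 and 2.26 in DKO livers and at 0.265, 0.347, 0.641 and 0.505 in wild-type livers (log2 difference of tumor and wild type 2.54, limma adjusted p = 0.00453). The order of the tumors differs from that of Prom1. Tspan8, encoding a tetraspanin, averaged 31.7 ± 14.2 RPKM in DKO tumors, 4.61 ± 1.66 in DKO livers and 6.13 ± 4.03 in wild-type livers (2.28 for tumor against wild type, limma adjusted p = 0.0215). Its wild-type livers of tag L03 had 11.6 and 6.55 RPKM and those of tag L02 2.21 and 4.201.

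Among 15 tested of 21 other progenitor and oncofetal genes, 3 rose in DKO tumors relative to wild-type livers and none fell, where 1.23% of all genes rose (median 0.66, against −0.02 over all genes). They were Igdcc4, listed as Nope and used as a fetal liver stem cell marker, the TWEAK receptor gene Tnfrsf12a, and Afp, encoding alpha-fetoprotein. Igdcc4 averaged 3.54 ± 1.45 RPKM in DKO tumors and 0.358 ± 0.0824 in wild-type livers (limma adjusted p = 0.00453). Tnfrsf12a averaged 13.7 ± 1.74 and 3.81 ± 0.642 (limma adjusted p = 0.0215), and Afp 20.2 ± 23.0 and 1.46 ± 0.597 (limma adjusted p = 0.0474). DKO livers had 0.293 to 1.48 RPKM of Igdcc4, 4.46 to 18.0 of Tnfrsf12a and 1.51 to 3.10 of Afp. Every DKO liver was above every wild-type liver for Tnfrsf12a, and DKO liver 3 was above every tumor. Afp was at 54.1 RPKM in tumor 4 and at 3.05 in tumor 3, below DKO liver 4.

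No tested gene of the desmosome, Notch and YAP, osteopontin receptor, mesenchymal transition and other keratin lists passed in any comparison. In DKO tumor against wild-type liver the median log2 difference was 0.34 for 9 desmosome and keratin linker genes, 0.17 for 27 Notch and YAP pathway genes, 0.29 for 9 osteopontin receptor genes, 0.003 for 9 mesenchymal transition genes and 0.46 for 4 other keratin genes, against −0.02 over all genes tested. The most abundant osteopontin receptor gene, Itgb1, averaged 67.2 ± 15.6 RPKM in DKO tumors and 54.3 ± 9.21 in wild-type livers, and the mesenchymal filament gene Vim averaged 34.5 ± 15.9 and 26.1 ± 6.85 (SD, n = 4 each). Yap1 was at 16.0 ± 1.99 and 15.8 ± 1.13 RPKM. Lists of hepatocyte, macrophage, stellate, endothelial, lymphocyte, neutrophil, erythroid and mesothelial markers, of pericentral markers, and of pancreas, intestine and skin markers held no gene that passed in any comparison.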

How the data were processed

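The deposited values are RPKM, computed by the authors per library for RefSeq transcripts with exon lengths and mm9 coordinates, per the file headers. The submitters' processing notes name BWA and mm9 without versions or roles. The counting tool, filters and strand are not given in the sources used here. Multiplied by exon length, at least 99.99% of a library's values were whole numbers of reads (tolerance 0.05 of a read), which gave depth and reads per gene. No molecular identifiers are stated, so depth speaks for counting error alone. Beyond the animal codes nothing states that replicates are separate animals, so p-values measure the spread between these samples. Groups were taken from the labels.

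A mean per group was fitted to log2(RPKM + 1) over 12 libraries with limma 3.58.1 (R 4.3.3; trend, robust shrinkage; two-sided; Benjamini-Hochberg at 0.05). The offset understates differences of low genes. The genes and gene lists were chosen with earlier results of these data known. Named list genes are up to 4 that passed, or the 2 with the highest mean. Of 336 list entries, 330 matched. DKO tumor and DKO liver are paired by animal codes. Deviations of same-numbered DKO tumors and DKO livers correlated at 0.117, 0.347, 0.368 and 0.003 across genes. Same-numbered wild-type livers, from other animals, gave −0.101 to 0.0469 with tumors and −0.127 to 0.227 with DKO livers. The values of animals 1 and 4 lie within the latter range. Single genes were also compared by exact permutation of libraries. Alternatives covered scaling, offset, filter, voom on recovered reads, the animal block, the tag, and each library left out. The fit was also run on simulated libraries with independent noise and no tag or animal effect. That run differs from these data and lends the calls no support. Python 3.11.15, numpy 2.4.6, pandas 2.3.3 and matplotlib 3.10.9 were used. Raw reads were not analysed here. A gene with a pattern like that of Cdh1 and the list of adherens and tight junction genes are not reported here.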

Additional observations from a re-analysis of the deposited data

Results flagged for a closer look

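Among 30 groups of 4 libraries, 10 genes in 3 groups, 3 had 1 library set apart by more of the range than the 95% critical value of Dixon's test. For 4 normally distributed values this happens in about 1 in 20 groups. The gaps were taken on RPKM and not on the log2 scale of the fits, so that rate need not hold here. The share of such groups over all genes is not given. In all 3 groups the library set apart was from animal 3. DKO liver 3 was the highest DKO liver for 58.1% of all genes tested, and tumor 3 the highest tumor for 40.2%. In DKO livers, Krt23 was at 2.90 RPKM in liver 3 and Spp1 at 153.8 RPKM in liver 3, with gaps of 0.833 and 0.873 of the range. In DKO tumors, Cd24a was at 10.09 RPKM in tumor 3, with a gap of 0.953. Stellate and neutrophil marker sums were highest in the same libraries of their groups, and their part was not tested.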

How the results depend on the processing

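Between DKO tumor and wild-type liver 2 of the 9 genes passed, Prom1 and Cdh1, against 0.0 with the tag as a covariate, 1.0 (Cdh1) within L03 libraries, and 0.0 to 2.0 with 1 library left out. Between DKO tumor and DKO liver 0 passed, against 1.0 (Prom1) without animal 3, an alternative chosen after seeing the data, and 0.0 to 1.0 with 1 library left out. In the pairing of tumor and liver by animal, the replicate block left 0 genes called there, with log2 differences of 1.80 for Prom1 and 1.58 for Cdh1. Between DKO liver and wild-type liver 0 passed under every alternative run.

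Directions that turned belong to genes that did not pass, and the cause was not tested. In DKO tumor against wild-type liver, Krt23 gave −0.00959 with an offset of 0.1, −0.15 with voom, −0.187 without animal 3 and −0.187 to 0.248 over the left-out libraries. Spp1 gave −0.0614 with the tag as a covariate and within L03, the same value by design. Spp1 also gave −0.515 without animal 3 and −0.515 to 0.481 over the left-out libraries. In DKO liver against wild-type liver, Krt8 gave −0.0999 and Krt23 −0.0907 without animal 3. Over the left-out libraries Krt8 ranged from −0.0999 to 0.31, Krt23 from −0.0907 to 0.505 and Cd24a from −0.0101 to 0.587. In DKO tumor against DKO liver, those ranges were −0.022 to 0.439 for Krt18, −0.494 to 0.19 for Krt23 and −0.511 to 0.0182 for Sox9.

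Over all genes tested, 216 passed between DKO tumor and wild-type liver, against 609 with median-of-ratios scaling, 478 after quantile normalization, 112 with no filter, 128 with a block on replicate numbers (tumors and wild-type livers share no animal), 25 within L03 and 3 with the tag as a covariate. With 1 library left out it was 16 (without wild-type liver 4) to 413 (without DKO tumor 3), and 37, 20, 21 and 83 without DKO tumors 1 and 2 and wild-type livers 1 and 2. Median-of-ratios scaling moved the median log2 difference of all genes between DKO tumor and DKO liver to 0.0124, against −0.0922 as deposited, and turned no direction among the 9 genes. Between DKO tumor and DKO liver 1 passed, against 71 with the animal block, 180 without animal 3, and 1 to 363 with 1 library left out (363 without DKO tumor 3, 20 without DKO liver 3, 31 without wild-type liver 3). Counting error limits genes with few reads, here Krt7 and Krt23 in most libraries and Krt19 in wild-type liver 1.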
